A study of Mus musculus with 3 samples.

Results

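The p53 target genes described here are Cdkn1a, Mdm2, Btg2, Ccng1, Gadd45a, Trp53inp1, Perp, Plk2, Zmat3 and Phlda3. They are 10 of the 18193 genes on the arrays and were taken by name, with all 18 probe sets that the array annotation gives to a single one of these symbols, out of 34945 such probe sets. RNA came from MC3T3-E1 cells, a mouse preosteoblast line which, per the labels, derives from C57BL/6 calvaria, the flat bone of the skull, and grows without limit. Cells were kept at 37 °C for 3 days in 1 of 3 media, with 1 Affymetrix 3' array per medium. All 3 media were MEM α with 10% fetal bovine serum. The first was osteogenic medium, which adds beta-glycerophosphate at 10 mM and ascorbic acid 2-phosphate at 150 µM, with 0.6% dimethyl sulfoxide (DMSO). The others were the same osteogenic medium with 0% DMSO, and normal medium, which has neither of the osteogenic additions. With 0.6% DMSO, per the labels, cells stained more strongly with alizarin red S, a dye for calcium deposits.

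The transcription factor p53 is stabilised when DNA is damaged or growth signals are out of balance, and then switches on genes that stop the cell cycle, repair DNA or start apoptosis. Cdkn1a encodes p21, which binds cyclin-dependent kinases and PCNA and holds the cell cycle. Mdm2 encodes the ubiquitin ligase that marks p53 for breakdown, so its induction closes a feedback loop. Many of these genes also answer to other factors, among them serum, stress kinases and differentiation signals. In osteoblasts, p53 is known from mouse models as a restraint on bone formation.

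The p53 protein binds a response element made of a pair of 10-base half-sites. RefSeq promoter windows (GRCm38.p6), which span 250 bases before to 50 after a start site, were at hand for 7 of the 10 genes, with 8 windows since Cdkn1a had 2 whose starts lie 2790 bases apart. No window was used for Trp53inp1, Perp and Zmat3. A response element was counted where 2 adjoining half-sites matched the consensus with at most 1 mismatch in 20 bases. That limit was chosen after the promoters had been seen, and the consensus reads the same on both strands. It was met in 2 of the 8 windows, and in 29 of all 32851 windows, or 0.0883%. The 2 are printed here because they place a match beside genes whose values are given next. The upstream 250 bases of each are shown 5′ to 3′, with the response element in capitals. The Ccng1 stretch is chr11:40755287-40755536 on the minus strand, with the element at -195 to -176 from the start site. The Cdkn1a stretch, at the upstream start, is chr17:29090729-29090978 on the plus strand, with the element at -51 to -32.
Ccng1: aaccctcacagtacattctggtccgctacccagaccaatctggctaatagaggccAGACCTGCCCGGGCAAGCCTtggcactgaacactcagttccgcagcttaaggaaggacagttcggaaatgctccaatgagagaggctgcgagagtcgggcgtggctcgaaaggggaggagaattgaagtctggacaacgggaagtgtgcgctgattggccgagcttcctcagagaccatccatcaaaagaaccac
Cdkn1a: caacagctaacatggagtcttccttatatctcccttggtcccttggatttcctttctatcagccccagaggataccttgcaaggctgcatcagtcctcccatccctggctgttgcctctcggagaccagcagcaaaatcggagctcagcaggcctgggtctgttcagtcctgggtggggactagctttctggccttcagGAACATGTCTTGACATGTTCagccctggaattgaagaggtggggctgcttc

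An exact half-site, which 8.36% of all windows hold, was found in 4 of the 8 windows. The upstream window of Cdkn1a held 2, of which that at -51 is in the printed element and that at -73 before it, and Ccng1 held 1, in its element. Mdm2 and Gadd45a had 1 each, beginning at -186 and -40. The windows of Btg2, Phlda3 and Plk2 and the downstream one of Cdkn1a held none, which says only that these letters are not in these windows. A match describes the sequence and does not show that p53 binds there.

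**Figure D1:**
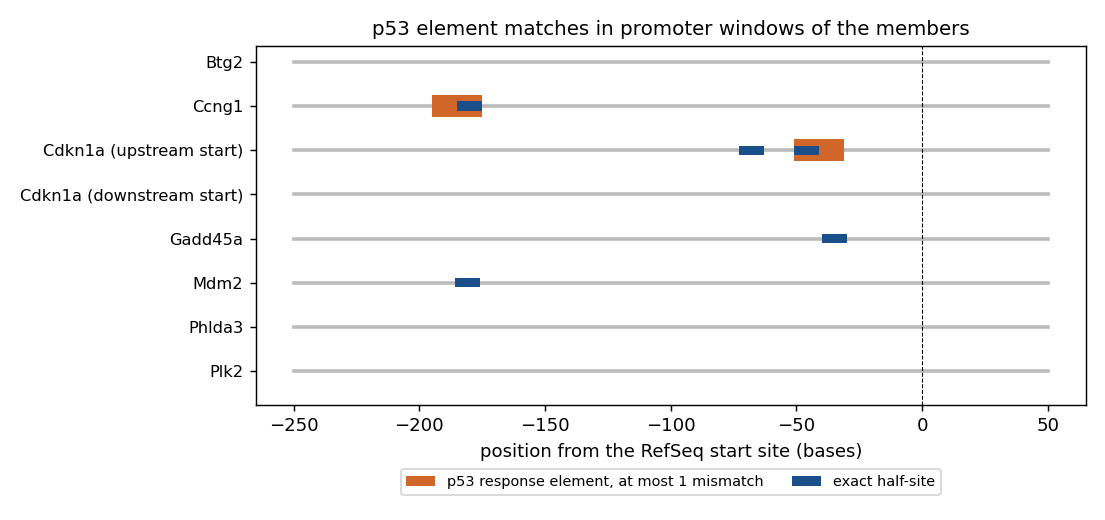
Positions of matches to the p53 response element (orange, 20 bases, at most 1 mismatch) and of exact 10-base half-sites (blue) in the 8 RefSeq promoter windows of 7 p53 target genes, along the distance in bases from the start site (dashed line). Response elements appear only in the windows of Ccng1 and of the upstream start of Cdkn1a.

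Values are log2 probe set values as deposited. Values were floored at 3.54, the 50th percentile over the arrays, and a gene was measured where its brightest probe set lay above it. On all 3 arrays, 9 of the 10 genes were above it. Perp, which encodes a membrane protein of desmosomes known from epithelia, was under it on each array, at 1.54, 1.54 and 1.20 in osteogenic medium with DMSO, osteogenic medium and normal medium, and its changes were not used. Among the 18 probe sets, 15 were above the floor on all arrays and 3 on none. With 1 array per medium there is no replicate, no test and no p-value, and the spread between cultures is unknown. Here rose and fell mean a difference of at least 1.5-fold, a size chosen with earlier results of these data known. Differences may come from a change per cell or in the share of cells that hold the RNA, which cannot be told apart in bulk RNA.

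The labelled cell type was checked against markers. The 7 osteoblast markers with a value (Sp7, Alpl, Ibsp, Col1a1, Col1a2, Sparc and Postn) were above the floor on all arrays, while 3 of 5 epithelial, 2 of 4 chondrocyte, 2 of 4 skeletal muscle and 2 of 5 macrophage markers were, and none of 3 adipocyte or 4 endothelial markers. The osteoblast factor Runx2 and osteocalcin (Bglap) were not analysed here. Median probe set values were 3.54 with DMSO, 3.57 in osteogenic and 3.54 in normal medium. RNA integrity, read as the log2 difference between the 3' and 5' probe sets of Actb, stood at 0.18 with DMSO, 0.20 in osteogenic and 0.27 in normal medium, and its part in the results was not tested. For the 18 hybridisation spike probe sets, the median log2 difference was 0.10 in osteogenic against normal medium, while DMSO against no DMSO gave -0.03. Between the brightest 2 probe sets of a gene, the log2 change scattered with an SD of 0.19 in the comparison of osteogenic with normal medium and 0.15 in that of DMSO with no DMSO, over 5183 genes. That scatter covers probe noise and transcript isoforms but not the cultures.

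The first comparison asked how osteogenic medium altered these genes in 3 days. Of the 9 measured genes, Cdkn1a, Mdm2 and Btg2 rose, Gadd45a fell, and the other 5 were higher by less than 1.5-fold. So 3 of 9 rose, where 1.75% of the 11417 genes measured did, and 1 of 9 fell, where 1.61% did. The genes were chosen with earlier results of these data known, so such shares describe them and test nothing. All 8 genes other than Gadd45a were above 0, against 36.5% of all genes, and all 8 were higher by at least 0.32 on the log2 scale, against 6.02%. None of the 9 reached 2-fold, against 0.473% of all genes upward and 0.184% downward. The median change of the 9 was 0.50 on the log2 scale, beside 0.00 over all genes, of which 24.9% had exactly equal values on both arrays.

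Cdkn1a was at 10.65 in osteogenic medium and 9.82 in normal medium, a 1.77-fold rise. Its second probe set was at 9.94 in osteogenic and 9.13 in normal medium, a change of 0.80 on the log2 scale against 0.82 for the first. The 2 probe sets of p21 thus moved alike, and among all genes 0.701% had a larger change than Cdkn1a. Mdm2 was at 8.12 in osteogenic and 7.29 in normal medium (1.79-fold), and its second probe set at 7.32 in osteogenic and 6.51 in normal medium (1.75-fold). A further probe set of Mdm2 was under the floor, with 1.56 on every array. The feedback ligase therefore had the largest change of the 9, by a margin over Cdkn1a of less than the scatter between probe sets.

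Btg2 encodes an antiproliferative protein that binds the deadenylase complex and is also an immediate early gene. It was at 7.25 in osteogenic and 6.47 in normal medium, 1.71-fold higher, and its second probe set differed by 0.67 on the log2 scale. Ccng1, the cyclin G1 gene, whose product recruits a phosphatase to Mdm2, was at 10.83 in osteogenic and 10.38 in normal medium, a change of 0.45. Its other 2 probe sets differed by 0.61 and 0.63, which is past 1.5-fold, so whether Ccng1 counts as risen turns on the probe set used. Probe sets of 1 gene share the RNA sample and are no replicates.

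Phlda3, a PH domain protein that restrains Akt signalling, was at 9.90 in osteogenic and 9.38 in normal medium, 1.43-fold higher. Zmat3, an RNA-binding zinc finger protein that regulates splicing, was at 8.99 in osteogenic and 8.48 in normal medium, 1.42-fold higher. Both stood close to the upper end of the central 95% of all genes, which ran from -0.49 to 0.51 on the log2 scale. Trp53inp1, which takes part in stress-induced cell death and autophagy, was at 9.77 in osteogenic and 9.31 in normal medium, a change of 0.46. Its second probe set, near the floor, read 4.27 in both and gave a change of 0.00. Plk2, a polo-like kinase induced by serum and by p53, was at 9.06 in osteogenic and 8.71 in normal medium, a change of 0.35, and its second probe set was under the floor.

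Gadd45a, a growth arrest and DNA damage gene whose product binds p21 and PCNA, went the other way. It was at 6.11 in osteogenic and 6.82 in normal medium, 1.64-fold lower, and its change ranked 94 from the lowest of 11417 genes. It has a single probe set here, so its direction has no second reading. Gadd45a is also known as a stress gene that ATF4, the factor of the amino acid response, can induce. The 7 genes of a short ATF4 list were all below 0, where 36.5% of all genes were above 0 and 24.9% were equal. Their median was -0.82, beside 0.00 over all genes, and 5 of the 7 fell, against 1.61%. Trib3, a pseudokinase, was at 6.48 in osteogenic and 7.90 in normal medium, and Ddit3, the stress factor CHOP, at 7.59 in osteogenic and 8.81 in normal medium. Whether the ATF4 genes and Gadd45a share a cause was not tested.

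**Figure D2:**
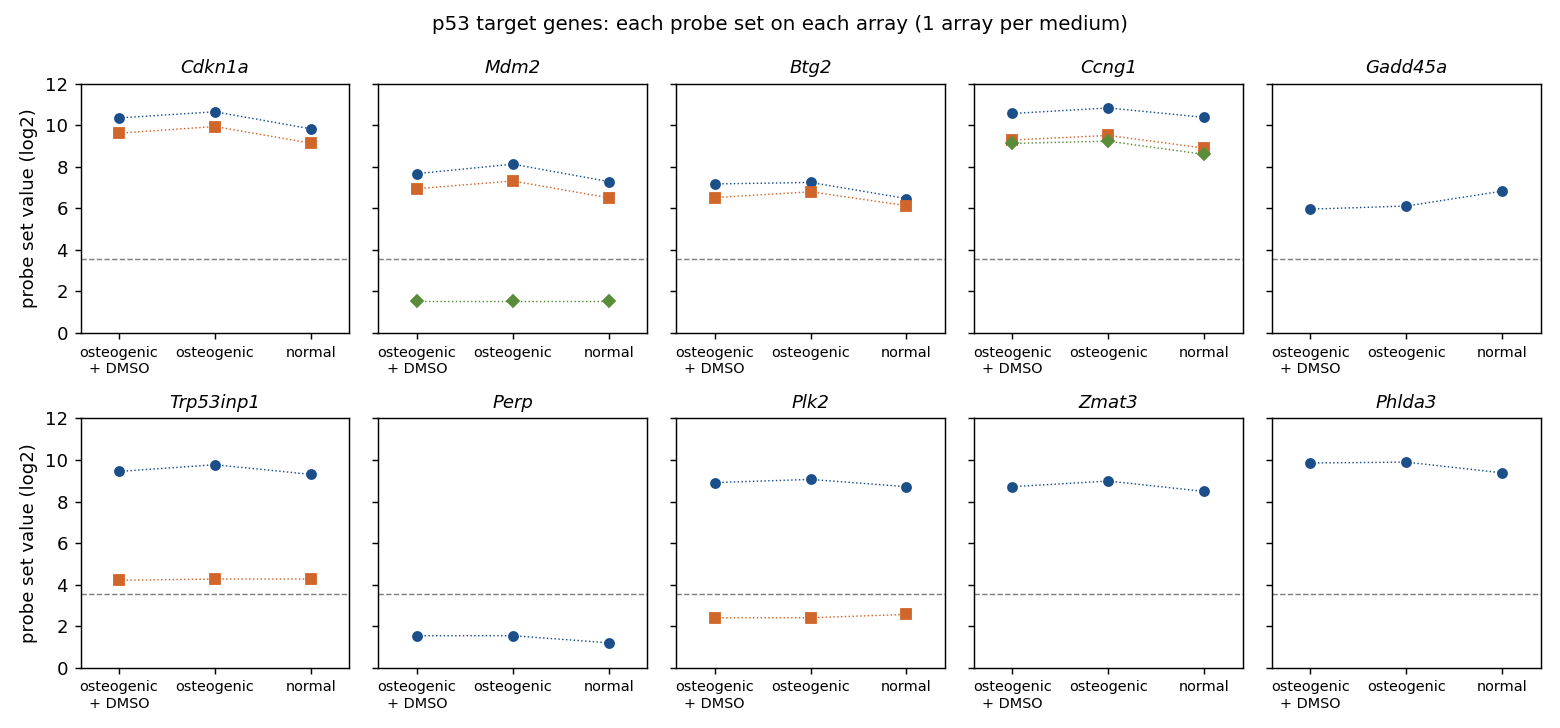
Deposited log2 value of every probe set of the 10 p53 target genes on the array of osteogenic medium with DMSO, osteogenic medium and normal medium (1 array each, dotted lines only join the points of a probe set). The dashed line is the floor of 3.54. In Cdkn1a, Mdm2, Btg2 and Ccng1 the probe sets above the floor peak in osteogenic medium, while Gadd45a is highest in normal medium.

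The second comparison asked what 0.6% DMSO altered within osteogenic medium. All 9 measured genes were lower with DMSO than without it, against 30.3% of all 11423 genes. A further 29.2% of all genes had exactly equal values on both arrays. The differences were small: none of the 9 fell by 1.5-fold, against 2.12% of all genes, none rose, against 0.35%, and 2 were lower by at least 0.32 on the log2 scale, against 5.42%. A 2-fold change was reached by none of them, against 0.552% of all genes downward and 0.0525% upward. The median change was -0.27 on the log2 scale, beside 0.00 over all genes. All 15 probe sets above the floor were below 0 as well. The array of osteogenic medium without DMSO enters both comparisons with opposite sign, so a deviation of that array alone would make a gene higher in the first and lower in the second.

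Mdm2 had the lowest change, with 7.67 in osteogenic medium with DMSO and 8.12 without (-0.45), and its second probe set gave -0.37. Trp53inp1 was at 9.45 with DMSO and 9.77 without, a change of -0.32, with -0.06 in its dim probe set. For Cdkn1a the values were 10.35 with DMSO and 10.65 without, a change of -0.30, with -0.32 in the second probe set. The ligase and p21 each moved alike in both of their probe sets, by more than the scatter of 0.15 between probe sets.

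Zmat3 was at 8.72 with DMSO and 8.99 without (-0.27). Ccng1 was at 10.56 with DMSO and 10.83 without (-0.27), and its other probe sets were at -0.22 and -0.10. Plk2 (8.91 with DMSO, 9.06 without) and Gadd45a (5.96 with DMSO, 6.11 without) both changed by -0.15, which equals the scatter. Btg2 was at 7.17 with DMSO and 7.25 without, a change of -0.07, though its second probe set gave -0.28. Phlda3, at 9.85 with DMSO and 9.90 without, had the smallest difference of the 9 (-0.04). All 9 lay within the central 95% of all genes in this comparison, from -0.53 to 0.31.

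**Figure D3:**
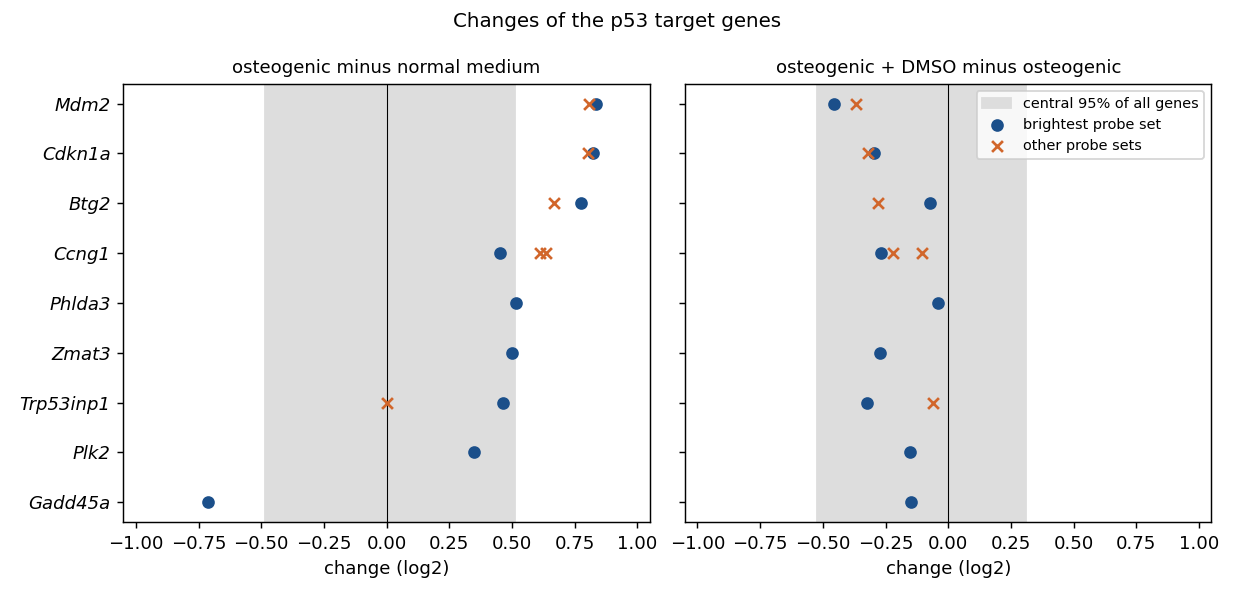
Log2 change of each probe set above the floor for the 9 measured p53 target genes, for osteogenic minus normal medium (left) and osteogenic medium with DMSO minus osteogenic medium (right). Circles are the brightest probe set of a gene, crosses its others, and grey the central 95% of all genes. On the left all probe sets of Mdm2, Cdkn1a and Btg2 lie above the grey band and that of Gadd45a below it, while on the right every point is below 0 and inside the band.

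Set directly against normal medium, osteogenic medium with DMSO still had 8 of the 9 genes higher, against 40.7% of all genes, with a median of 0.23 on the log2 scale. This difference is the sum of the other 2 and adds no array. In it, 23.5% of all genes had exactly equal values. Btg2 was 1.63-fold higher with DMSO than in normal medium, so 1 of 9 rose, against 2.59% of all genes. Cdkn1a was higher by 0.53, Phlda3 by 0.47 and Mdm2 by 0.38, while Ccng1, Plk2, Zmat3 and Trp53inp1 were higher by 0.14 to 0.23. Gadd45a was 1.82-fold lower, and 1 of 9 fell, against 4.19%. By at least 0.32 on the log2 scale, 4 of 9 were higher, against 8.09%, and none was 2-fold higher or lower, against 0.604% and 1.34%.

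Likeness to Cdkn1a was read as the Euclidean distance over the 2 log2 differences, among 11203 genes above the floor on all arrays. With clone and predicted names and the p53 target genes described here left out, the nearest were Rab26os, Aopep, Fas, Fzd1 and Prpf39, at distances of 0.04 to 0.11. Fzd1 is a Wnt receptor and Prpf39 a splicing factor. The changes of the 5 genes ranged from 0.76 to 0.87 in osteogenic against normal medium and from -0.41 to -0.21 with DMSO. Fas, the death receptor, is itself a p53 target. Of the p53 target genes described here, Mdm2 was nearest to Cdkn1a, at 0.16, and Gadd45a was the farthest, at 1.54. With clone and predicted names included, 15 genes were nearer than Mdm2. Likeness over 3 arrays is a coarse measure.

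Further genes of the p53 pathway were taken from lists. Among 21 measured genes of a list of 25 other p53 targets, 16 were above 0 in osteogenic against normal medium, against 36.5% of all genes. Of the 21, 3 rose, against 1.75%, and none fell, against 1.61%, with a median of 0.15 beside 0.00 over all genes. The risers were Eda2r, a receptor of the TNF family, at 7.00 in osteogenic and 5.89 in normal medium (2.17-fold), Fas, 1.83-fold higher, and Ercc5, a nucleotide excision repair nuclease, 1.59-fold higher. Fas was at 5.67 in osteogenic and 4.80 in normal medium, and Ercc5 at 7.83 in osteogenic and 7.16 in normal medium. Aen, an apoptosis-enhancing nuclease, was higher by 0.49, with 0.03 to 0.66 in its 3 other probe sets. With DMSO, 15 of the 21 were below 0, against 30.3% of all genes. None passed 1.5-fold, against 2.12% downward and 0.35% upward. The median was -0.07, and Ercc5 and Fas were both at -0.35. Among the targets that did not rise, the apoptosis gene Bbc3 differed by 0.01 in osteogenic medium, Sesn2, which is also an ATF4 target, by -0.34, and Pmaip1 was under the floor on every array.

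Beyond Ccng1 and Cdkn1a, 27 genes had the response element in a promoter window, and 4 of these were measured. Their changes in osteogenic against normal medium were 0.79 for Gtse1, a p53-inducible gene of the G2 phase, 0.27 for Rps27l, 0.14 for Mthfd1 and 0.03 for Calhm2. All 4 were thus above 0, against 36.5% of all genes, with a median of 0.20. Of these, Rps27l was already counted among the other p53 targets. The changes of Mthfd1 and Calhm2 were smaller than the scatter of 0.19 between probe sets. With DMSO the 4 genes ranged from -0.04 to 0.11.

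Of 12 measured regulators of p53 and relatives of p53, none rose in osteogenic against normal medium, against 1.75% of all genes. None fell, against 1.61%, and the median was 0.07. The gene of p53 itself was not analysed here. The checkpoint kinase genes Chek2 and Chek1 were higher by 0.33 and 0.27, with 0.00 to 0.57 in the 2 other probe sets of Chek1. With DMSO the median was 0.00 and, against 2.12% of all genes, 1 gene fell. This was Trp63, the p53 relative of epithelial stem cells, at 7.02 in osteogenic medium with DMSO and 8.48 without it, 2.75-fold lower, while its other 2 probe sets ranged from -0.94 to 0.00. Mdm4, the partner of Mdm2, was at -0.37, with 0.00 in its other 2 probe sets. Of 5 epithelial markers, 2 also fell with DMSO, against 2.12% of all genes. Cdh1, which encodes E-cadherin, was at 3.55 with DMSO, next to the floor of 3.54, and at 4.87 without it. The keratin gene Krt14, at 5.10 without DMSO, was under the floor with it, at least 2.95-fold lower. Epcam differed by -0.07, Krt8 read 3.58 on every array, and Krt5 was under the floor on every array. The summed log2 value of the 5 was 17.9 with DMSO, 20.9 in osteogenic medium and 19.8 in normal medium. Whether epithelial cells were present, and whether they had a part in the value of Trp63, was not tested.

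In a list of 12 cell cycle genes that p21 is known to repress, all 11 measured were higher in osteogenic than in normal medium (median 0.37, against 36.5% of all genes above 0), beside the higher Cdkn1a. All 11 were higher again with DMSO (median 0.28, against 40.5% of all genes above 0), beside the lower Cdkn1a. None rose by 1.5-fold in either, against 1.75% and 0.35% of all genes. These counts use the brightest probe set of each gene. The 2 other probe sets of Cdc20 ranged from 0.48 to 0.65 in osteogenic against normal medium and from -0.05 to 0.17 with DMSO. Bub1b was at 0.01 with DMSO, and its other probe set at 0.00. Between osteogenic medium with DMSO and normal medium, 7 of the 11 rose, against 2.59% of all genes, with a median of 0.64. In that comparison Plk1 was 1.70-fold and Mybl2 1.71-fold higher. Plk1, a mitotic kinase, was at 7.97 in osteogenic medium with DMSO, 7.67 without it and 7.21 in normal medium, and Mybl2, a cell cycle transcription factor, at 5.42 with DMSO, 5.06 without it and 4.65 in normal medium. Of the 11 cyclins, kinases and PCNA that p21 binds, Ccnd1, the cyclin D1 gene, was the 1 that rose, against 1.75% of all genes. Ccnd1 was at 10.60 in osteogenic and 9.93 in normal medium, and at 10.16 with DMSO. Its 2 other probe sets ranged from 0.42 to 0.56 in osteogenic against normal medium, under 1.5-fold. Whether Ccnd1 counts as risen thus turns on the probe set used. Ccne2, the cyclin E2 gene, was higher by 0.49 in both comparisons.

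Of 6 other inhibitors of cyclin-dependent kinases, 3 were measured and none rose in osteogenic medium, against 1.75% of all genes. Cdkn2d, Cdkn2c and Cdkn1b differed by 0.22, -0.08 and -0.22 in osteogenic against normal medium. The second probe set of Cdkn1b, the p27 gene, was at -1.18, so its reading depends on the probe set. With DMSO the 3 were between -0.08 and 0.00, while the second probe set of Cdkn1b was at 0.21. Cdkn1c, Cdkn2a and Cdkn2b were under the floor on every array.

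**Figure D4:**
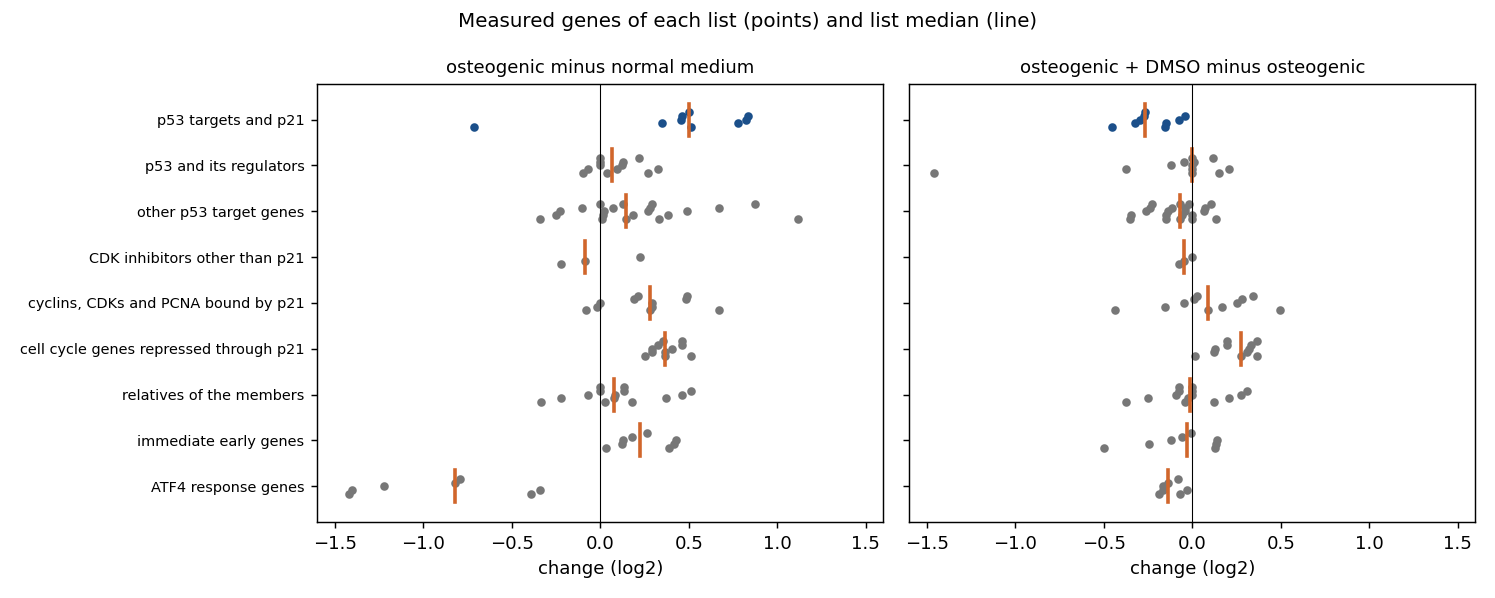
Log2 changes of the measured genes of the p53 target genes (blue) and of 8 lists of related genes (grey), for osteogenic minus normal medium (left) and osteogenic medium with DMSO minus osteogenic medium (right). Each point is a gene and orange lines are list medians. The p53 targets have medians of 0.50 and -0.27, and the genes repressed through p21 medians of 0.37 and 0.28.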

How the data were processed

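The deposited log2 values of 45101 probe sets on 3 arrays were used as the authors deposited them. How they were summarised and normalized is not stated in the labels. The log2 scale was read from the range of 0.652 to 13.4, and similar quartiles show a scaling common to the arrays before deposit. Control probe sets (64) were left out. Genes were named by the platform annotation of 2016, from probe sets with 1 symbol. Where a gene had several, the one of highest mean stood for it, and values under the 50th percentile were raised to that floor. A gene was measured if above the floor on at least 1 of the 2 arrays compared. Changes are log2 differences, described by counts past 1.5-fold and by medians, without tests, since each group had 1 array.

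Members, lists, thresholds and named genes were chosen with earlier results of these data known. Named were all members, up to 4 genes per list with the largest changes, and, clone and predicted names aside, the 5 genes most like Cdkn1a. Genes named outside that rule (Bbc3, Sesn2, Pmaip1, Gtse1, Rps27l, Mthfd1, Calhm2, the epithelial markers, Bub1b, Cdkn1c, Cdkn2a, Cdkn2b and, in the closing section, relatives) were chosen after their values were seen. All 10 members were found by gene number in the RefSeq table of GRCm38.p6. Alternatives were quantile normalization, cyclic loess, other probe set rules, other floors, no equal values and other thresholds. Software was R 4.3.3 (limma 3.58.1) and Python 3.11.15 (pandas 2.3.3, numpy 2.4.6, matplotlib 3.10.9). The procedure was tested on simulated data.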

Additional observations from a re-analysis of the deposited data

How the results depend on the processing

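No paired analysis was possible because each medium had 1 array. Each of the 9 measured genes kept its direction in all 3 comparisons under quantile normalization, cyclic loess and the mean of probe sets. That mean took only probe sets above the floor. Gadd45a, Plk2, Zmat3 and Phlda3 have 1 such probe set each, so it could not alter them. Leaving out probe sets whose names end in _s_at, _x_at or _i_at, no floor, and a floor at the 60th percentile could not alter these 9 genes. Their probe sets have none of these endings and lie above each floor, so their changes stayed the same by construction. Median changes ranged from 0.48 to 0.51 on the log2 scale for osteogenic against normal medium, from -0.29 to -0.19 for DMSO within osteogenic medium and from 0.22 to 0.37 for osteogenic medium with DMSO against normal medium. With the mean of probe sets, Trp53inp1 was higher by 0.23 in osteogenic medium in place of 0.46, since its dim probe set read 0.00, and 0 genes rose with DMSO against normal medium in place of 1. At a threshold of 2-fold, 0 genes passed in either direction in any of the comparisons. At a lower threshold of 0.32 on the log2 scale, 8 were higher in osteogenic against normal medium, 2 were lower with DMSO within osteogenic medium, and 4 were higher with DMSO against normal medium. Perp and the dim probe sets of Mdm2 and Plk2 were too dim to give a change. With single arrays, no alternative shows how far cultures of 1 medium differ.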

Other observations

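Close relatives of the p53 target genes were measured too. Of 14 such relatives none rose in osteogenic against normal medium, against 1.75% of all genes, and none fell, against 1.61%. Counts of none among 14 are near those shares, and the median was 0.08 on the log2 scale. Gadd45b and Gadd45g, which share the stress sensor role of Gadd45a, were higher by 0.18 and 0.13 in osteogenic medium, where Gadd45a fell, and higher by 0.21 and 0.28 with DMSO. Btg1, a relative of Btg2, read 10.42 on every array in its brightest probe set, while its other probe set differed by 0.12 in osteogenic against normal medium and by -0.23 with DMSO. Ccng2, a relative of Ccng1, differed by 0.08 and 0.00 in the same comparisons. Phlda1, a relative of Phlda3, was higher by 0.37 in osteogenic medium, and Pmp22, of the family of Perp, differed by -0.33.

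Btg2 and Plk2 are also known as early responders to serum. Of 8 immediate early genes, 7 were above the floor on all arrays. All 7 were above 0 in osteogenic against normal medium, against 36.5% of all genes, with a median of 0.26. None was past 1.5-fold, against 1.75% upward and 1.61% downward. With DMSO, 4 of the 7 were below 0, against 30.3%. Junb was at 6.93 in osteogenic and 6.51 in normal medium, and Fos at 8.34 in osteogenic and 7.95 in normal medium. Ier3 and Jun were higher by 0.42 and 0.13 in osteogenic medium. With DMSO, Jun changed by -0.50 (-0.38 in its other probe set), Fos by -0.25, Ier3 by -0.06 and Junb by 0.13. Fosb was above the floor in osteogenic medium without DMSO alone, so it is left out of these counts.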
